A study of Macaca mulatta with 8 samples.

Results

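The genes described here encode the machinery that releases transmitter from synaptic vesicles. They were chosen by a rule on gene symbols, with earlier results of these data known. The families were synaptotagmins (SYT), synapsins (SYN1 to SYN3), SV2 glycoproteins, complexins (CPLX), syntaxins (STX), SNAP and VAMP proteins, syntaxin-binding proteins (STXBP), UNC13 priming factors and RIMS active zone proteins. The rule found 67 rows with 65 symbols among the 21748 genes of the matrix, and 61 of the rows reached 10 counts per 1000000 UMIs (CPM) in at least 1 cell class. The other 6 rows did not: CPLX3, CPLX4, STX19, SYT8, UNC13D and VAMP8. CPLX2 and VAMP2 are not analysed here. SNAP91 matches the rule by its name, although it is a clathrin assembly adaptor that retrieves vesicles after release. The files give STX3 to 2 identifiers, and the symbol table names 1 of these rows (ENSMMUG00000022319) MRPL16, a mitochondrial ribosomal protein.

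Transmitter release is an ordered chain. RIMS proteins hold vesicles and calcium channels at the active zone, UNC13 proteins open syntaxin so that vesicles become primed, and syntaxin then forms the SNARE complex with SNAP25 and a vesicle VAMP. Complexins hold that complex ready, and a synaptotagmin on the vesicle triggers fusion when calcium binds, while synapsins keep a reserve of vesicles and SV2 proteins sit in the vesicle membrane. Most members of these families that do not act at synapses carry out fusion between the Golgi, endosomes and the cell surface in every cell type.

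The nuclei were isolated from brains of male rhesus macaques, frozen beforehand. Droplet sequencing of the 3' ends of RNA counted molecules by unique molecular identifiers (UMIs). The 4 sevoflurane samples came from 1 animal that inhaled the anaesthetic gas sevoflurane at about 2.5 to 3% for 4 h in each session, first near postnatal day 7, and later sessions are given as 14 and 28 days without saying whether these are ages or intervals. The 4 control samples came from tissue mixed from 2 animals without that exposure; both pools were split 4 ways, and the samples of a group are therefore not separate animals. The labels name the hippocampus in one field and the amygdala in another. The deposited matrix joins 8 libraries, and no source used here says which library is which sample, so sevoflurane was not compared with control and no p-value was computed. All values below compare cell classes, and the spread over the 8 libraries mixes any effect of exposure with other differences between libraries.

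The libraries held 35806547 to 47007082 UMIs. Libraries 1 to 4 had median counts of 3189 to 3426 UMIs per barcode and libraries 5 to 8 of 5730 to 5831, and neurons made up 29.4% to 71.8% of a library. Of 59318 barcode sequences, 429 occurred in 2 or more libraries. After filters 54644 nuclei remained in 44 clusters, of which 4 clusters with 2226 nuclei stayed unnamed. The named classes were neurons (28332 nuclei: 18770 excitatory, 7035 inhibitory and 2527 immature) and non-neuronal nuclei (24086). Hippocampal markers were present: PROX1, a granule cell transcription factor, had 247 CPM in dentate granule-like nuclei and 1.84 CPM in CA pyramidal-like nuclei, and FIBCD1 had 6.99 CPM in granule-like nuclei and 87.1 CPM in pyramidal-like nuclei. The granule-like name required high PROX1 and the pyramidal-like name high FIBCD1, so these levels are not independent support for the names. The granule-like class joins cluster 10, mostly of libraries 1 to 4, and cluster 22, mostly of libraries 5 to 8, and the pyramidal-like class joins clusters 16 and 11 in the same way.

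**Figure D1:**
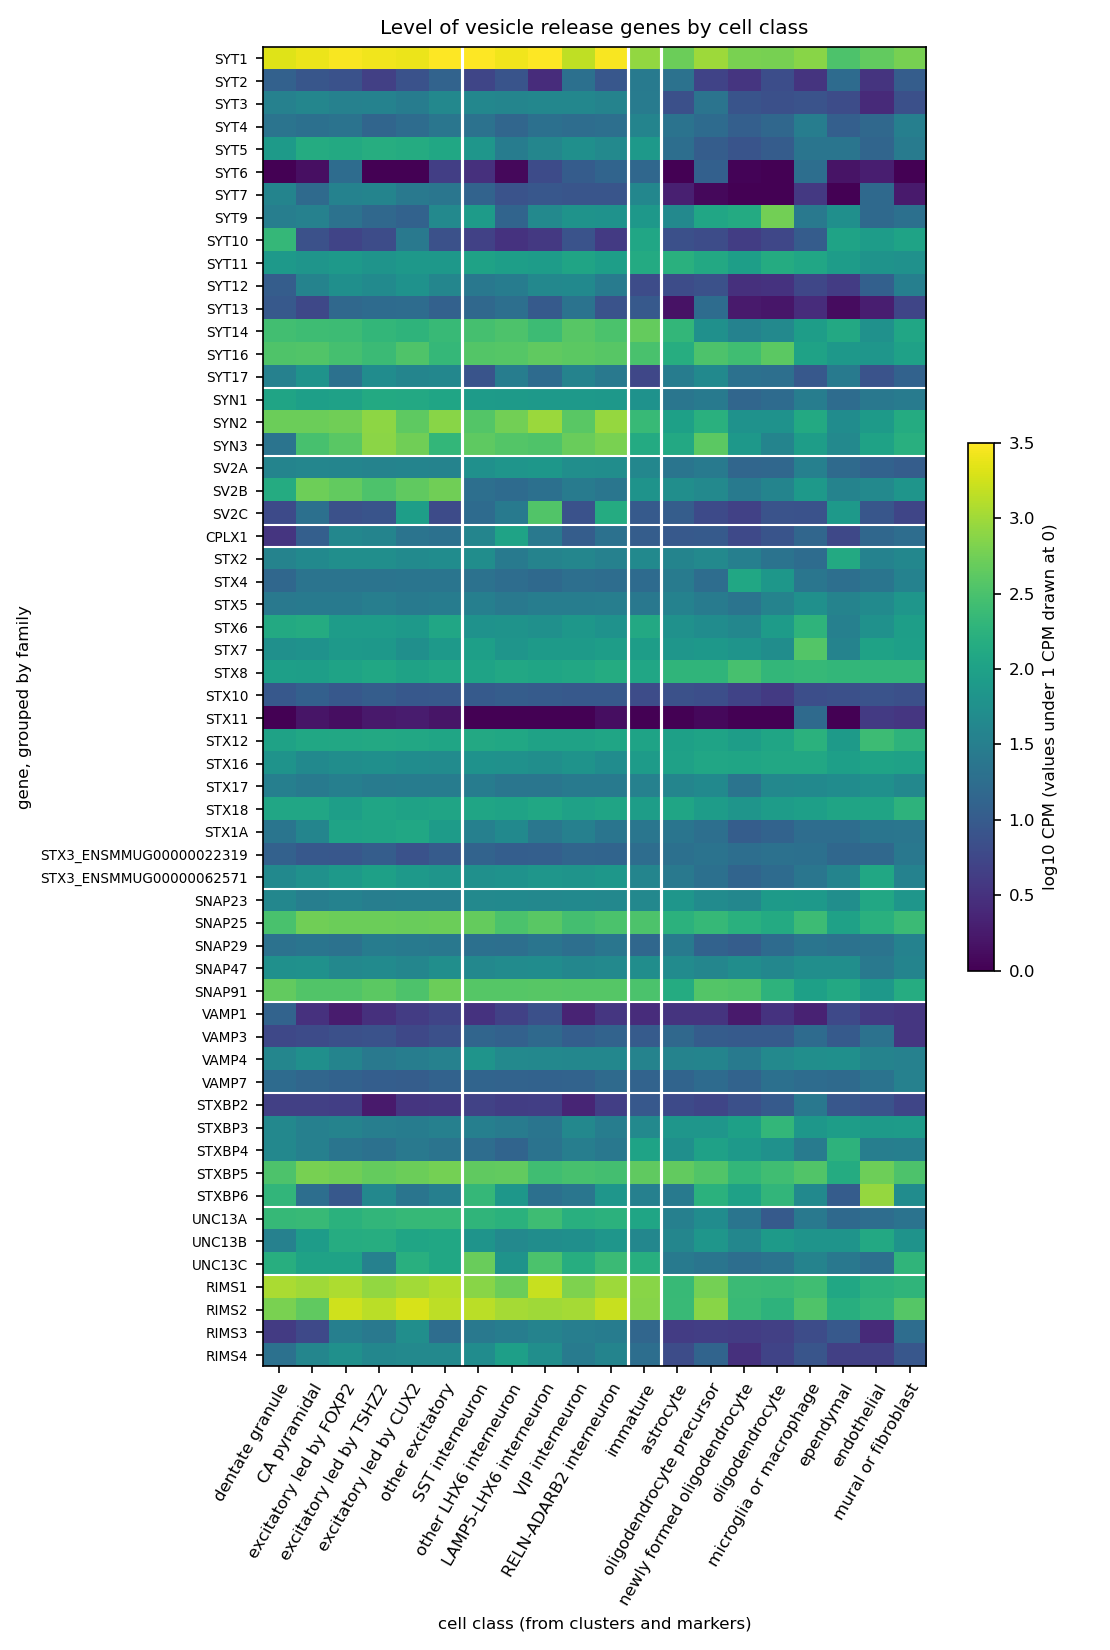
Level of 58 of the 61 genes that reached 10 CPM in some class, as log10 CPM (colour), with cell classes across and genes by family down. White lines part excitatory, inhibitory, immature and non-neuronal classes; SYT1, RIMS1 and RIMS2 are bright in all neuron classes, SV2B in excitatory classes, SYT9 in oligodendrocytes, STX7 in microglia and STXBP6 in endothelial nuclei.

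Neurons were first set against all non-neuronal nuclei. A gene counted as measured at 10 CPM or more in one of the classes. It counted as higher or lower when, in addition, the levels differed by 2-fold or more and all libraries that held 50 or more nuclei of each class pointed the same way. Of 55 measured members, 25 were higher in neurons, 6 were lower and 24 were neither. Over all genes measured in this comparison, 11.8% were higher in neurons and 18.7% were lower. The median log2 ratio was 0.69 for the members and -0.23 for all 10393 genes.

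Among the calcium sensors, SYT1, the sensor of fast release, had 2651 CPM in neurons (2503 to 2748 over libraries, median 2651) and 630 CPM in non-neuronal nuclei (557 to 785, median 593), a ratio of 4.21 (exact 95% interval 4.17 to 4.25, counting error only). SYT7, a slow high-affinity sensor of asynchronous release, had 25.1 CPM in neurons (20.2 to 27, median 26.4) and 1.81 CPM in non-neuronal nuclei (0.62 to 6.74, median 2.3), which at 13.9-fold (11.6 to 16.8) was the widest ratio among the members. SYT5 had 114 CPM in neurons (90.6 to 137, median 112) and 14.6 CPM in non-neuronal nuclei (9.94 to 25.2, median 20.6). For each of these genes the neuron libraries lay above all non-neuronal libraries.

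SYT12, SYT3, SYT13 and SYT14 were also higher in neurons, by 7.25-fold, 3.87-fold, 3.13-fold and 2.47-fold. Of the priming factors, UNC13A had 204 CPM in neurons (168 to 226, median 206) and 26.3 CPM in non-neuronal nuclei (19.8 to 49.1, median 35.1), and UNC13C was higher by 5.54-fold. UNC13B, at 99.5 CPM in neurons and 61.8 CPM in non-neuronal nuclei, stood above in 8 of 8 libraries but below the 2-fold limit. All 4 RIMS genes were higher in neurons. RIMS2 had 1279 CPM in neurons (1075 to 1383, median 1298) and 307 CPM in non-neuronal nuclei (271 to 377, median 314), RIMS1 was higher by 3.59-fold, and the short forms RIMS4 and RIMS3 by 6.39-fold and 5.14-fold.

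The vesicle proteins followed. SYN2, SYN1 and SYN3 were higher in neurons by 6.09-fold, 4.87-fold and 2.84-fold, and SV2B, SV2C and SV2A by 7.55-fold, 2.77-fold and 2.04-fold. SV2A, the binding site of the antiseizure drug levetiracetam, lay close to the limit: without library 3 its log2 ratio was 0.90, without library 4 it was 0.98, and with libraries weighted equally it was 0.94. The SNARE proteins of the plasma membrane were divided. STX1A was higher in neurons by 4.1-fold, STX3 (ENSMMUG00000062571) by 2.81-fold and SNAP25 by 2.68-fold. STX4 was lower in neurons. SNAP23 had 36.3 CPM in neurons and 68 CPM in non-neuronal nuclei, lower in 8 of 8 libraries but short of 2-fold. CPLX1, which clamps the SNARE complex, was higher in neurons by 2.86-fold.

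The 6 members lower in neurons were SYT9, STXBP3, STXBP4, STXBP6, STX4 and STX16. SYT9 had 33.6 CPM in neurons (30.6 to 37.7, median 33.3) and 211 CPM in non-neuronal nuclei (59 to 285, median 115), 6.28-fold lower in neurons. The non-neuronal level was uneven: SYT9 had 44 CPM in astrocytes and 283 CPM in the other non-neuronal nuclei. In microglia or macrophages, endothelial and mural or fibroblast nuclei SYT9 lay below its neuron level. STXBP3, which binds syntaxin 4 in non-neuronal secretion, had 34 CPM in neurons (30.5 to 36.9) and 113 CPM in non-neuronal nuclei (70.9 to 137). STXBP4, another partner of syntaxin 4, was lower by 2.47-fold, STXBP6 by 2.43-fold, STX4 itself by 2.18-fold and STX16, a syntaxin of the trans-Golgi network, by 2.1-fold. For STXBP6 the direction also differed among non-neuronal classes: it had 52.3 CPM in neurons, 28.1 CPM in astrocytes and 10.3 CPM in ependymal nuclei. Under TMM scaling, which sets the bulk of genes equal and shifts every log2 ratio of this comparison by 0.23, STX4 (-0.90) and STX16 (-0.84) no longer passed; with libraries weighted equally, STX16 (-0.88) and STXBP4 (-0.99) did not.

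Free RNA in droplets gives nuclei counts of genes they do not transcribe, so levels in non-neuronal nuclei were set beside neuron markers. In non-neuronal nuclei 15 markers of excitatory and inhibitory neurons stood at a median of 30.7% of their neuron level and LHX6 was lowest among them at 14.1%. The 53 members at 10 CPM or more in neurons stood at a median of 51%, between 7.20% and 628%, and 17 of them lay at or below the marker median. For those 17, which include SYT7, SYT5, UNC13A, SV2B, SYT12 and SYN2, the non-neuronal level is not read as expression.

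**Figure D2:**
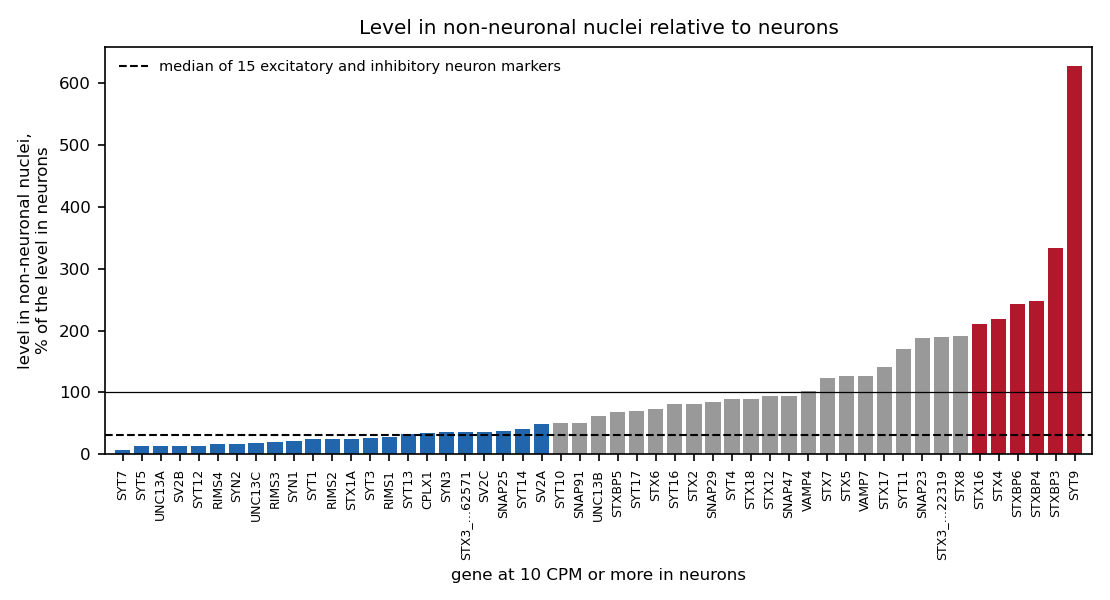
Level in non-neuronal nuclei as a percent of the level in neurons (bars), for 51 of the 53 members at 10 CPM or more in neurons, sorted. Blue bars lie under 50%, red bars over 200%, the solid line marks 100% and the dashed line the median of 15 neuron markers (30.7%); SYT7 is lowest at 7.20% and SYT9 highest at 628%. The rows of STX3 carry the end of their gene identifier.

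Of 38 other presynaptic genes, 36 were measured, 23 were higher in neurons and 2 were lower. RPH3A (rabphilin, a Rab3 effector) was 9.31-fold and RIMBP2 (which links RIM to calcium channels) 8.91-fold higher in neurons. DNM3 and PICALM, both endocytic proteins, were 2.59-fold and 2.17-fold lower in neurons.

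Within neurons, excitatory nuclei were set against inhibitory nuclei. Most members passed in neither direction: of 54 measured, 5 were higher in excitatory nuclei, 4 were lower and 45 were neither. Over all genes measured, 6.16% were higher and 6.56% lower, and the median log2 ratio was 0.04 for the members and -0.11 for all genes. SYT1 had 2705 CPM in excitatory nuclei and 2688 CPM in inhibitory nuclei, and SYN2, RIMS2 and SNAP91 all had log2 ratios between 0.04 and 0.09.

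SV2B carried the widest ratio. It had 439 CPM in excitatory nuclei (385 to 470 over libraries, median 444) and 21.7 CPM in inhibitory nuclei (18.1 to 29.8, median 20.2), 20.2-fold higher (18.9 to 21.6). Its paralog SV2C had 25.8 CPM in excitatory nuclei (10.6 to 34.4, median 27.1) and 71.8 CPM in inhibitory nuclei (51.9 to 83.5, median 72.6), 2.79-fold lower, and SV2A, at 38.2 CPM in excitatory and 58.5 CPM in inhibitory nuclei, missed the 2-fold limit. The excitatory level of SV2C was uneven: nuclei led by CUX2 held 3170 of its 4576 excitatory UMIs and had 91.4 CPM (49.4 to 127 over libraries), a range that overlapped the inhibitory one, while the other excitatory types had 6.13 to 19.3 CPM. As a share of the UMIs of the 3 SV2 genes, SV2B made up 87.3% in excitatory nuclei (85.8% to 89.7% over libraries) and 14.3% in inhibitory nuclei (12% to 19.7%). The ranges of SV2B and SV2C over libraries did not overlap between the classes.

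Among calcium sensors, SYT5 had 131 CPM in excitatory nuclei (106 to 158, median 127) and 49.8 CPM in inhibitory nuclei (36.7 to 58.6, median 48), and SYT7 had 28.3 CPM in excitatory nuclei (22 to 31) and 9.42 CPM in inhibitory nuclei (7.76 to 10.9). SYT10 had 33.6 CPM in excitatory nuclei and 4.91 CPM in inhibitory nuclei, but its excitatory level lay between 12.3 and 76.6 CPM over libraries and its log2 ratio between 1.33 and 4.15. Granule-like nuclei held 4247 of its 5962 excitatory UMIs, at 215 CPM, and the other excitatory nuclei had 10.9 CPM. SYT9, a fast sensor in some mouse neurons, had 27.2 CPM in excitatory nuclei and 54.7 CPM in inhibitory nuclei, 2.01-fold lower. Its call was marginal: its log2 ratio was -0.97 without library 1, -0.95 without library 2, -0.997 without library 3 and -0.99 without library 4, each short of 2-fold.

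STX1A, the syntaxin of neuronal plasma membranes, was 2.54-fold higher in excitatory nuclei, at 83.8 CPM in excitatory and 33 CPM in inhibitory nuclei. UNC13C had 117 CPM in excitatory nuclei (107 to 144, median 114) and 254 CPM in inhibitory nuclei (216 to 314, median 250), with no overlap. STXBP6 (amisyn, a SNARE-binding inhibitor of fusion) had 43.7 CPM in excitatory nuclei (23.4 to 83) and 91.1 CPM in inhibitory nuclei (58.7 to 142), so its library ranges overlapped although it was lower in excitatory nuclei within 8 of 8 libraries. TMM scaling, a shift of 0.10, left 6 members higher and 2 lower in excitatory nuclei, with STXBP6 at -0.96 and SYT9 at -0.90.

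**Figure D3:**
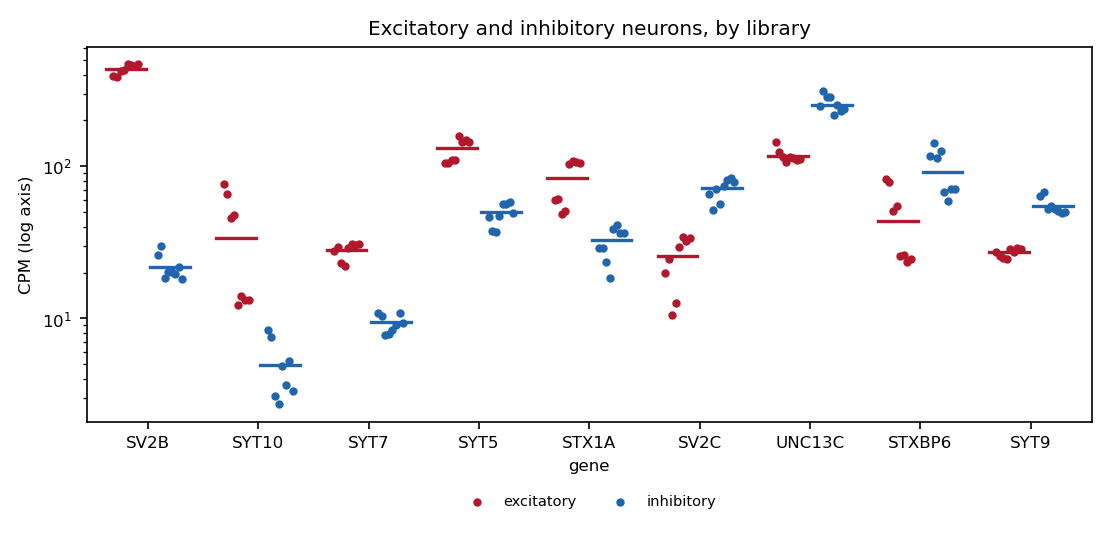
Level in excitatory and inhibitory nuclei (CPM, log axis) of the 9 members called between them; each point is a library, libraries 1 to 8 from left to right, and each line the CPM of all nuclei of the class. SV2B in excitatory nuclei lies above 385 CPM in every library against at most 29.8 CPM in inhibitory nuclei, while the SYT10 and STXBP6 points spread widely within a class.

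Of 37 other presynaptic genes measured, 5 were higher in excitatory nuclei and 4 lower. DOC2B, a calcium sensor of spontaneous release, was 3.08-fold and CADPS2, a priming factor of dense-core vesicles, 3.07-fold higher in excitatory nuclei. RPH3A was 3.57-fold and RAB3B 2.28-fold lower.

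The granule-like and pyramidal-like excitatory types differed in 8 of 54 measured members, 4 in each direction. Over all genes measured, 5.71% were higher and 5.90% lower in granule-like nuclei, and the median log2 ratio was -0.07 for the members and 0.02 for all genes. SYT10, which in mouse olfactory bulb neurons triggers the release of an insulin-like growth factor, had 215 CPM in granule-like nuclei (57.2 to 329 over libraries, median 161) and 7.38 CPM in pyramidal-like nuclei (2.53 to 12.6, median 7.34), 29.1-fold higher (25.6 to 33.3). STXBP6 had 202 CPM in granule-like nuclei (90.5 to 249, median 167) and 18.2 CPM in pyramidal-like nuclei (2.15 to 35.5, median 13.3). For both genes all granule-like libraries lay above all pyramidal-like ones.

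VAMP1, a vesicle SNARE, had 13 CPM in granule-like nuclei (5.89 to 17.1) and 3.19 CPM in pyramidal-like nuclei (2.21 to 5.15), and SYT7 was 2.35-fold higher. SYN3 was the member furthest below: it had 22.5 CPM in granule-like nuclei (17.6 to 26.2, median 22.5) and 306 CPM in pyramidal-like nuclei (252 to 410, median 302), 13.6-fold lower (12.4 to 15). It gave 3.42% of the synapsin UMIs in granule-like nuclei (2.3% to 4.83% over libraries) and 33.2% in pyramidal-like nuclei (26.4% to 41.8%), while SYN2 had 523 CPM in granule-like and 520 CPM in pyramidal-like nuclei.

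SV2B had 143 CPM in granule-like nuclei (120 to 169) and 528 CPM in pyramidal-like nuclei (464 to 570), 3.7-fold lower. SYT12 was 3.34-fold lower and UNC13B 2.51-fold lower in granule-like nuclei. Nuclei with at least 1000 genes gave 7 lower members in place of 4. Of 35 other presynaptic genes measured, 3 were higher in granule-like nuclei, led by RPH3A (17.6-fold) and the vesicle protein SYNPR (5.29-fold), and 3 were lower, led by GAP43, a growth cone protein (6.99-fold), and CADPS2 (4.16-fold).

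The granule-like and the pyramidal-like nuclei were also each set against all other excitatory nuclei. The excitatory types led by FOXP2, TSHZ2 or CUX2 and the remaining excitatory nuclei were not compared in this way. Granule-like nuclei had 3 higher and 10 lower members of 56 measured, with 5.04% and 7.77% of all genes called. Beside SYN3 (18.6-fold lower), the lower members were CPLX1 (3.44 CPM in granule-like and 25.4 CPM in other excitatory nuclei), RIMS3, SV2C, SYT12, STX1A, UNC13B, SV2B, RIMS4 and RIMS2. Pyramidal-like nuclei had 0 higher and 6 lower members of 53 measured, with 1.64% and 4.75% of all genes called. RIMS2, which with RIMS1 holds the active zone, had 446 CPM in pyramidal-like and 1503 CPM in other excitatory nuclei (3.37-fold lower), and RIMS1 made up more of the RIMS UMIs there, at 67.3%, than over all excitatory nuclei, at 44.4%.

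The immature neurons were 1 cluster. DCX, a microtubule protein of young neurons, had 192 CPM in immature and 34.6 CPM in granule-like nuclei, SOX4 had 119 CPM in immature and 11.3 CPM in granule-like nuclei, and PROX1 had 429 CPM in immature nuclei. The immature name required high DCX, and SOX4 was among the markers scored for it, so neither is independent support for the name. At least 50 immature nuclei were present in libraries 1 to 4 only, so the direction of each difference was checked in those 4 libraries, while levels and ratios pool all nuclei of each class. Of 55 measured members 7 were higher in immature nuclei and 6 lower, against 13.2% and 5.91% of all genes measured; the median log2 ratio was 0.04 for the members and 0.21 for all genes. SYT1 had 867 CPM in immature nuclei (662 to 935 over 4 libraries, median 795) and 2126 CPM in granule-like nuclei (1973 to 2375 over 8 libraries, median 2069), and SYN2 had 227 CPM in immature nuclei (133 to 269) and 523 CPM in granule-like nuclei (426 to 633). SV2B (2.29-fold), VAMP1 (4.73-fold), STXBP6 (6.04-fold) and SYT17 (6.15-fold) were lower as well.

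SYN3, in contrast, had 140 CPM in immature nuclei (134 to 175, median 148) and 22.5 CPM in granule-like nuclei (17.6 to 26.2), 6.22-fold higher, with no overlap. SYT6 had 14.7 CPM from 91 UMIs in immature nuclei and 0.405 CPM from 8 UMIs in granule-like nuclei, a ratio of 36.2 with an interval of 17.6 to 86.4. Of the 4 libraries compared, 3 had no SYT6 UMI in granule-like nuclei; in library 3 the levels were 8.17 CPM in immature and 0.898 CPM in granule-like nuclei, a log2 ratio of 3.19, against 5.18 over all nuclei and 3.86 where at least 1000 genes per nucleus were required. RIMS3 (14.2 CPM in immature and 4 CPM in granule-like nuclei), STXBP4 (106 CPM in immature and 43.4 CPM in granule-like nuclei), CPLX1, SYT9 and SYT2 were also higher. SNAP25 did not pass, at 329 CPM in immature and 312 CPM in granule-like nuclei.

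Immature nuclei held 2455 UMIs on average and granule-like nuclei 7412; the part of this depth in these differences was not tested. TMM scaling shifted this comparison by -0.26 and left 4 higher and 9 lower members, ending the calls of CPLX1 (1.39, under 10 CPM), SYT2 (0.93) and SYT9 (0.98). Without library 1 CPLX1 also stood under 10 CPM, at a log2 ratio of 1.39. SV2B and SYT9 passed narrowly: with doublets kept, their log2 ratios were -0.97 and 0.80, with at least 1000 genes per nucleus -0.98 and 0.84, and at resolution 2.0 -0.99 and 0.85, each short of 2-fold. Of 35 other presynaptic genes 3 were higher in immature nuclei, led by GAP43 (4.32-fold) and SYNGR1 (2.38-fold), and 7 were lower, led by PPFIA4 (3.52-fold) and RIMBP2 (2.61-fold).

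**Figure D4:**
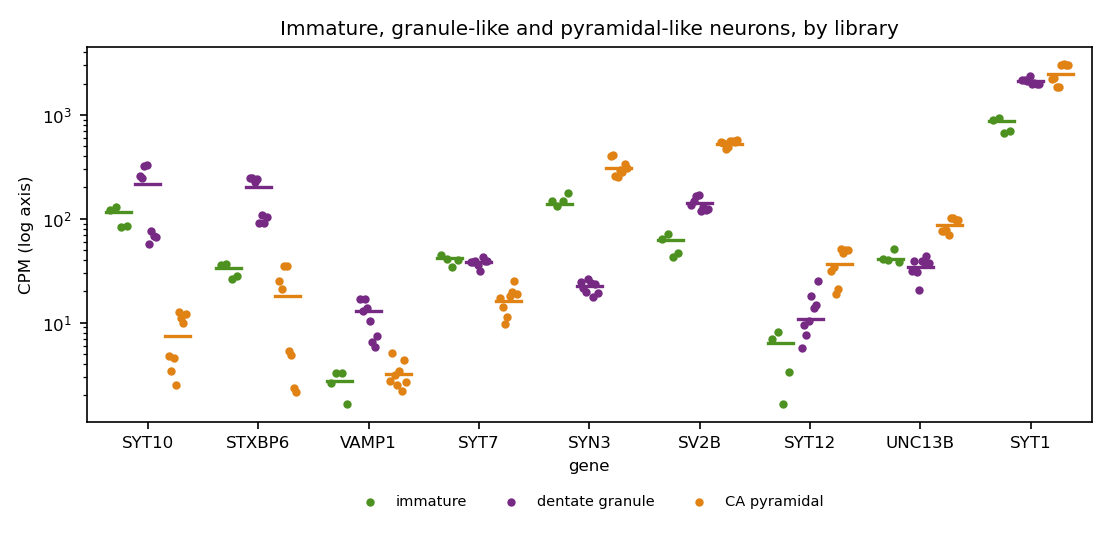
Level (CPM, log axis) of 9 members in immature, dentate granule-like and CA pyramidal-like nuclei; each point is a library with at least 50 nuclei of the class and each line the CPM of all its nuclei. SYN3 is lowest in granule-like nuclei (22.5 CPM) and higher in immature (140 CPM) and pyramidal-like nuclei (306 CPM), SYT10 and STXBP6 are highest in granule-like nuclei, and SYT1 is lowest in immature nuclei (867 CPM).

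Inhibitory neurons fall into LHX6-expressing types (3497 nuclei) and ADARB2-expressing types (3538 nuclei), names that come from transcription and RNA-editing genes of the lineages born in the medial and caudal ganglionic eminences. Of 56 measured members 3 were higher in LHX6 types and 2 lower, against 2.97% and 3.46% of all genes measured; the median log2 ratio was -0.02 for the members and -0.00 for all genes. CPLX1 had 63.9 CPM in LHX6 types (43.5 to 75.8, median 64.5) and 15.4 CPM in ADARB2 types (7.92 to 21.4, median 14.9), 4.16-fold higher with no overlap. STXBP6 had 128 CPM in LHX6 types (77.5 to 229) and 44.9 CPM in ADARB2 types (37 to 70), and RIMS4 was 2.07-fold higher. SYT6 was 4.11-fold and SYT2 2.4-fold lower in LHX6 types. Without library 2 the log2 ratio of RIMS4 was 0.99, short of the limit. Of 35 other presynaptic genes 2 were higher, GAP43 (2.41-fold) and CADPS (2.27-fold), and 1 lower, CADPS2 (3.24-fold).

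Single interneuron types were each set against all other inhibitory nuclei. LAMP5-LHX6 nuclei (606, with 50 nuclei in 5 libraries) had 2 higher and 2 lower members, against 2.62% and 4.40% of all genes. SV2C had 352 CPM in LAMP5-LHX6 nuclei and 45.7 CPM in the other inhibitory nuclei, 7.72-fold higher (7.17 to 8.3), and RIMS1 had 1623 CPM in LAMP5-LHX6 and 720 CPM in the other inhibitory nuclei. SV2C made up 79.5% of the SV2 UMIs in LAMP5-LHX6 nuclei (76.8% to 85.1% over libraries) and 47.3% in all inhibitory nuclei. SV2C was also higher in RELN-ADARB2 nuclei, at 142 CPM against 53.3 CPM in the other inhibitory nuclei. That type had 1 higher and 2 lower members, and 1.84% of all genes were higher and 2.93% lower. SV2C was lower in VIP (12.2-fold), SST (5.4-fold) and other LHX6 nuclei (3.03-fold).

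SST nuclei had UNC13C at 495 CPM against 173 CPM in the other inhibitory nuclei, and STXBP6 at 213 CPM against 49.7 CPM; these were the 2 higher members beside 3 lower ones, and 2.50% of all genes were higher and 4.51% lower. The other LHX6 nuclei were those whose clusters met the marker limits of no single interneuron type. In them UNC13C had 62.3 CPM against 307 CPM in the other inhibitory nuclei, 4.93-fold lower (4.53 to 5.38), and SYT9 was 4.98-fold lower. They had CPLX1 at 108 CPM against 24.2 CPM and RIMS4 at 93.8 CPM against 41 CPM; these were again the 2 higher members beside 3 lower ones, with 2.68% of all genes higher and 4.65% lower. UNC13C gave 65.4% of the UNC13 UMIs in SST nuclei (60.9% to 72.1% over libraries) and 22.4% in other LHX6 nuclei (17.7% to 30.3%). VIP nuclei had 5 lower members (3.54% of all genes were lower), including SYT1 at 1449 CPM against 3069.5 CPM in the other inhibitory nuclei, and SYT2 as the 1 higher member (3.13% were higher), at 19.5 CPM against 6.86 CPM.

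**Figure D5:**
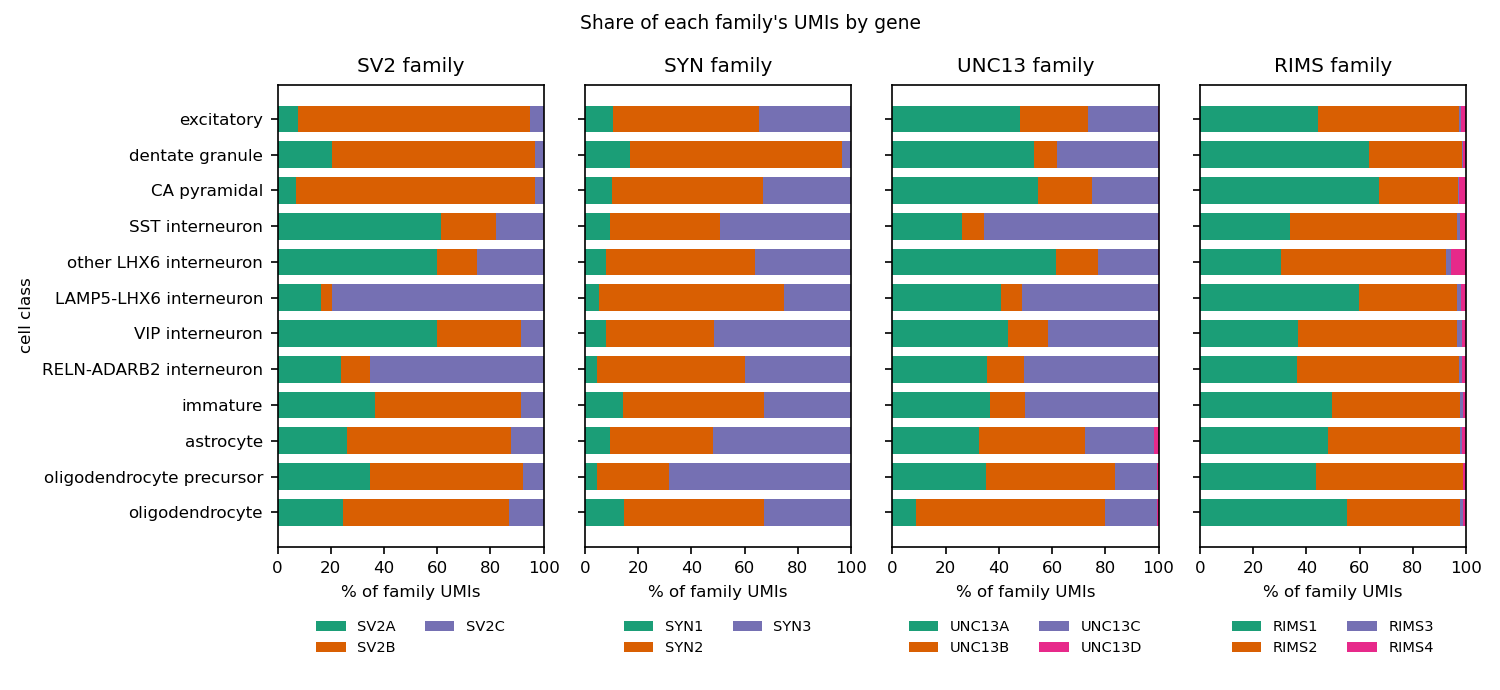
Share of the UMIs of the SV2, SYN, UNC13 and RIMS families that each gene gave (bars, % of family UMIs) in 12 classes. SV2B fills 87.3% of SV2 UMIs in excitatory nuclei and SV2C 79.5% in LAMP5-LHX6 interneurons; SYN3 gives 3.42% of synapsin UMIs in granule-like nuclei and UNC13C 65.4% of UNC13 UMIs in SST interneurons. UMI shares are not per transcript length.

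Among glia, oligodendrocyte precursors were set against oligodendrocytes, the ends of 1 lineage. Precursors are known to receive synapses from neurons. Of 49 measured members 10 were higher in precursors and 3 lower, against 12.7% and 8.01% of all genes measured, and the median log2 ratio was 0.23 for the members and 0.08 for all genes. SYN3 had 413 CPM in precursors (306 to 933 over libraries, median 564) and 37.6 CPM in oligodendrocytes (28.3 to 98.5, median 44.2), 11-fold higher (10.1 to 11.9). The active zone gene RIMS2 had 751 CPM in precursors (701 to 940) and 181 CPM in oligodendrocytes (150 to 327), and RIMS1 had 596 CPM in precursors (541 to 679) and 237 CPM in oligodendrocytes (191 to 310). The library ranges of these 3 genes did not overlap between the classes.

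UNC13A (5.06-fold), SYT3 (3.15-fold), SYN2 (2.7-fold), SYT17 (2.41-fold) and SNAP91 (2.02-fold) were also higher in precursors, as was SYT6, at 11.7 CPM in precursors and 0.826 CPM in oligodendrocytes. SYT9 had 116 CPM in precursors (75 to 127, median 115) and 571 CPM in oligodendrocytes (356 to 590, median 518), 4.92-fold lower, and STX4 (3.97-fold) and STXBP3 (3-fold), a pair that binds each other, were lower too. The 15 neuron markers stood at a median of 35.8% of their neuron level in precursors and 22.8% in oligodendrocytes; the part of free neuron RNA in these differences was not tested. UNC13A, at 24.5% of its neuron level in precursors, and SYN2, at 28.6%, lay under the precursor median, so their levels there are not read as expression. With 5% of the profile of all nuclei taken off, the 10 higher and 3 lower calls all remained, and UNC13A moved to a log2 ratio of 4.63, against 1.73 with libraries weighted equally. SNAP91 ended under TMM scaling (0.87), with doublets kept (0.98) and with libraries weighted equally (0.98). Of 33 other presynaptic genes 10 were higher in precursors, led by CADPS (7.49-fold) and RAB27B (4.13-fold), and 2 were lower, PICALM (2.26-fold) and ERC2 (2.24-fold).

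Astrocytes differed from the other non-neuronal nuclei in 2 higher and 4 lower members of 49 measured, against 8.58% and 12.4% of all genes; the median log2 ratio was -0.01 for both the members and all genes. SYT14, a synaptotagmin without the calcium-binding residues, had 208 CPM in astrocytes and 60.2 CPM in the other nuclei, but its log2 ratio lay between 0.01 and 2.33 over libraries, and it did not pass with at least 1000 genes per nucleus or at a coarser clustering (1.83 and 1.79). SYT2 had 21 CPM in astrocytes and 6.31 CPM in the others. SYT9 (6.43-fold), STXBP6 (6.04-fold), SYT10 (2.63-fold) and SYT16 (2.01-fold) were lower in astrocytes, and SYT16 passed narrowly. Its log2 ratio was -0.95 without library 3 or without library 4, -0.99 without library 5 or without library 8, and -0.998 without library 7. The SYT16 call also ended with libraries weighted equally (-0.78), under TMM scaling (-0.98), with doublets kept (-0.9996) and at resolution 0.5 (-0.998). Of 34 other presynaptic genes 2 were higher, PPFIA1 (2.99-fold) and SH3GL2 (2-fold), and 3 lower, led by ERC2 (4.21-fold) and DNM3 (3.77-fold).

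Each remaining class was set against all other non-neuronal nuclei. Microglia or macrophages had 3 higher members (10.6% of all genes were higher): STX7, a syntaxin of late endosomes, at 371 CPM against 63 CPM (5.89-fold), STXBP2, which serves granule secretion in blood cells, at 25.2 CPM against 7.44 CPM, and SYT6 at 18.7 CPM against 2.74 CPM. Of 52 measured members 4 were lower there (14.8% of all genes were lower), SYT9 (8.78-fold), SYT2, STXBP4 and SYT16, and 8 more passed the fold limit but not in every library. Oligodendrocytes had SYT9 at 571 CPM against 68.9 CPM in the other non-neuronal nuclei, 8.3-fold higher, with STXBP3 (2.8-fold), SYT16 (2.2-fold) and STXBP6 (2.04-fold) also among 4 higher and 3 lower members, and 6.21% of all genes were higher and 19.6% lower. Precursors set against the same nuclei had 12 higher and 3 lower members, and 5.57% of all genes were higher and 12.1% lower; SYT13 led them at 17.2 CPM against 1.74 CPM. Newly formed oligodendrocytes, with 50 nuclei in 4 libraries, had 1 higher member, STX4, at 122 CPM against 38.5 CPM (4.61% of all genes were higher). They had 4 lower members of 48 measured (21.8% of all genes were lower): SYT10 (3.75-fold), SYT2, SYT14 and SV2C.

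Ependymal nuclei, which line the ventricles, had SYT10 at 106 CPM against 9.47 CPM, SV2C at 76 CPM against 8.16 CPM, STX2 at 133 CPM against 31.9 CPM and STXBP4 at 182 CPM against 63.5 CPM in the other non-neuronal nuclei, with 12.5% of all genes higher. Of 49 measured members 9 were lower in ependymal nuclei (12% of all genes were lower), led by STXBP6 at 10.3 CPM, 13-fold lower, SYT16 (3.64-fold) and SYN3 (3.15-fold), with STXBP5, RIMS1, STX7, STX6 and RIMS2 between 2.05-fold and 2.45-fold. Endothelial nuclei (454, with 50 nuclei in 3 libraries) had STXBP6 at 897 CPM against 109 CPM, 8.24-fold higher (7.77 to 8.74), and STX3 (ENSMMUG00000062571) at 123 CPM against 21.8 CPM, among 8 higher members (12.4% of all genes were higher). Endothelial nuclei also had 8 lower members of 51 measured (17.5% of all genes were lower), led by SYT9 (13.6-fold) and SYT16 (3.73-fold), with SYT17, SYT2, SNAP91, STXBP4 and SYT11 among them. Mural or fibroblast nuclei (285, with 50 nuclei in 3 libraries) had UNC13C at 193 CPM against 24.5 CPM. It was 1 of 5 higher members (10.5% of all genes were higher). In the same nuclei 7 of 51 measured members were lower (10.7% of all genes were lower): SYT9 (10.7-fold), VAMP3 (3.4-fold), SYT16, STXBP6, SYT11, STXBP4 and SYT17. VAMP3 rested on 2 UMIs in these nuclei, so its fold is uncertain. The endothelial and mural clusters had median doublet scores of 0.4 to 0.44, where 0.02 was the value in the immature cluster; the part of doublets in their values was not tested.

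STX12, STX18, STX5, VAMP7, VAMP4 and SNAP47, which serve endosomes, the endoplasmic reticulum and the Golgi, passed the call in neither direction, with log2 ratios between -0.34 and 0.16 in neurons against non-neuronal nuclei. Of these, STX5 (-0.33) was lower in neurons in 8 of 8 libraries and VAMP7 (-0.34) in 7 of 8. Levels still differed among narrower classes: VAMP4 had 65.5 CPM in SST nuclei and 25.9 CPM in excitatory nuclei led by TSHZ2. Some other SNAREs of such compartments had wider ratios between neurons and non-neuronal nuclei. STX16 was called lower in neurons. STX8 (log2 ratio -0.94), VAMP3 (-0.63) and STX17 (-0.50) were lower in 8 of 8 libraries without passing. STX6 (0.47) was higher in 8 of 8 without passing. Of the 6 members under 10 CPM in every class, VAMP8, a SNARE of endosomes and secretory granules, came closest, at 9.93 CPM in microglia or macrophages, followed by CPLX3, known from retinal ribbon synapses, at 6.98 CPM in RELN-ADARB2 nuclei. The vesicle SNARE VAMP1 passed 10 CPM in granule-like nuclei alone among the named classes, just above the limit at 13 CPM.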

How the data were processed

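The authors deposited 1 matrix of raw UMI counts (whole numbers, 1 row per gene, 1 column per nucleus), written by Cell Ranger 3.1.0 per the file headers. CASAVA 1.8 and Seurat are named in the submitters' processing notes. Neither a genome build nor the treatment of intron reads is stated in the labels or headers, and no coordinates or sequences are printed. The members and the lists were chosen with earlier results of these data known. No library could be given a group, so the matrix was treated as 1 sample, without p-values.

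The filter kept 58220 nuclei, those reaching 500 UMIs and 300 genes. Simulated doublets were scored per library and 3576 nuclei removed at 0.8% per 1000 nuclei. The 2000 most variable genes, without the members and the 38 other presynaptic genes, gave 30 principal components and a graph of 20 neighbours, clustered by the Leiden method at resolution 1.0 (leidenalg 0.10.2, igraph 0.11.9, scikit-learn 1.9.0). Clusters were named by log2-scaled markers (188 of 196 in the matrix), a scoring settled after the data had been seen. Excitatory cluster 14 holds the endothelial gene ERG among its leading genes.

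UMIs were summed per class and divided by the class total (CPM). The values are not per transcript length, so each gene is compared with itself between classes. Exact 95% intervals, which reflect counting error alone, are Poisson for levels, conditional binomial for ratios and Clopper-Pearson for family shares. The call rule was tested on simulated data that held Poisson counting error only. Differences in profile between libraries, free RNA and doublets were not simulated, so the test does not cover them. Named genes were, per comparison and direction, the 3 called members with the widest ratio and the 2 with the highest level, given over libraries, and the 2 other presynaptic genes of largest fold; the rest are given by fold or count. Some members and markers are counted but not reported here by name. TMM factors came from edgeR 4.0.16. Alternatives were doublets kept, at least 1000 genes, other resolutions, TMM, equal library weights, no minimum level, a 1.5-fold limit, 5% of the profile of all nuclei taken off, and leaving out each library.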

Additional observations from a re-analysis of the deposited data

Results flagged for a closer look

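Of 84 member calls checked over their libraries, 4 had 1 library far from the others. Chance may give such libraries too, at a rate that was not tested. RIMS3 in neurons against non-neuronal nuclei had a log2 ratio of 1.34 in library 5, where the other libraries lay between 1.96 and 2.45. RIMS4 in LHX6 against ADARB2 interneurons had 0.12 in library 4, where the others lay between 0.997 and 1.499. In oligodendrocyte precursors against oligodendrocytes, library 6 stood apart for both SYN3 (4.85, the others 3.02 to 3.73) and SYT17 (3.41, the others 1.05 to 2.13). The fewest nuclei in a library were 89 for precursors and 54 for oligodendrocytes. All 4 calls kept the direction of the other libraries.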

How the results depend on the processing

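Of 85 member calls over the 7 main comparisons, 71 held under all 17 alternatives, of which the 1.5-fold limit and the absence of a minimum level only loosen the rule and cannot end a call; none of the 85 changed direction. A 1.5-fold limit moved these counts: 11 members lower in neurons than in non-neuronal nuclei, 8 higher and 7 lower in excitatory than in inhibitory nuclei, 9 lower in granule-like than in pyramidal-like nuclei, 11 higher and 11 lower in immature than in granule-like nuclei, 4 lower in LHX6 than in ADARB2 types, 8 lower in astrocytes, 22 higher calls over neuron subtypes (11 at 2-fold) and 83 lower calls over glial classes (42 at 2-fold). TMM scaling left 2 members lower in excitatory nuclei and 4 higher in immature nuclei. Requiring 1000 genes gave 7 lower in granule-like nuclei, and 1 higher in astrocytes, as did resolution 0.5. Without a minimum level 7 were lower in astrocytes. Leaving out each library gave 24 to 25 higher and 6 lower members in neurons, and 3 to 4 lower in excitatory nuclei. Shares of all genes called are given for the main settings only. Counts under other settings have no such share beside them and are not read as results about the members. Some folds moved by over 1.5 times without losing their call; their log2 ratios follow. With 5% of the profile of all nuclei taken off, SYT7 in neurons moved to 4.88, SV2B in excitatory nuclei to 5.79, and SYN3 to -5.58 in granule-like, 4.35 in immature and 4.23 in precursor nuclei. With libraries weighted equally, SYT7 in neurons moved to 3.05, SYT6 in precursors to 2.70 and SYT10 in astrocytes to -2.36. SYT6 in immature nuclei lay between 3.86 and 6.55 over 5 settings. VIP nuclei had no name at resolution 0.5, so the subtype totals were not run there.

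No paired analysis was possible because no source assigns libraries to samples or replicate numbers, so sevoflurane and control samples could not be paired. In the main settings, levels and ratios pooled the nuclei of all libraries. Single libraries entered a call only through the direction of the difference, in those with enough nuclei of both classes. The make-up of the libraries can therefore enter the ratios of broad classes. Oligodendrocytes, for example, made up 0.97% to 24.3% of a library. Exposure, animal and library cannot be told apart in these values. Low genes rest on few UMIs, such as 8 for SYT6 in granule-like nuclei and 2 for VAMP3 in mural or fibroblast nuclei.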
